A study of Mus musculus with 4 samples.

Results

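The simple epithelial keratins *Krt7*, *Krt8*, *Krt18* and *Krt19* were examined in RNA-seq data from day 3 embryoid bodies (EBs), the floating clusters that mouse embryonic stem cells (mESCs) form as they differentiate after LIF is withdrawn. These 4 genes are 4 of the 52 keratin genes and 4 of the 24347 gene rows in the data. They were chosen by gene symbol and selected on the measured difference between the genotypes, since *Krt8* and *Krt18* were known to be lower in the mutant EBs and most markers of extraembryonic endoderm to be higher. Their differences between the genotypes, and the contrast with those markers, are therefore given as a description without a test.

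The study asked how NEMEP, a micropeptide encoded by *Gm11549*, acts in mesendoderm differentiation. WT EBs were compared with EBs from mESCs in which the promoter of *Gm11549* had been deleted (promoter KO), all of the 129/Ola strain, harvested at day 3 without LIF and with no other treatment. There were 2 samples of each genotype, named here WT 1, WT 2, promoter KO 1 and promoter KO 2. Whether the promoter KO samples came from 1 or several clones is not given in the labels. The values are FPKM (fragments divided by the transcript length in kilobases and by the number of mapped fragments, scaled), so levels can be compared between genes per transcript length. They summed to 677777, 696928, 673951 and 679870 in the 4 samples, and the depth estimated from the lowest values was about 24700000, 21900000, 21600000 and 20100000 fragments. *Gm11549* itself was listed at 0.750 and 0.522 FPKM in WT against 0 and 0.0659 in promoter KO, in the direction of the labels, and was too low to be tested. WT 2 was the highest sample for all 4 keratins and for most tested genes of some gene groups, though not of others. The keratin differences are therefore given with and without it.

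Keratins build the intermediate filaments of epithelial cells as obligate pairs of a type II and a type I chain. KRT8 (type II) with KRT18 (type I) is the first keratin pair made in the embryo, in trophectoderm and extraembryonic endoderm, and it marks simple epithelia in the adult. KRT7 (type II) and KRT19 (type I) join this pair in many simple and ductal epithelia, and KRT19 is the smallest keratin, lacking most of the tail domain.

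*Krt8* and *Krt18* are neighbours on chromosome 15. In the GENCODE M21 annotation of GRCm38, *Krt8* runs from 101996698 to 102004482 on the minus strand and *Krt18* from 102028180 to 102032027 on the plus strand, so their starts face away from each other across 23698 bases. *Krt7* lies on the same chromosome (101411043 to 101430313, plus strand), and *Krt19* is on chromosome 11 (100140810 to 100148665, minus strand). The longest coding transcripts have 9 exons in *Krt7* and *Krt8*, 7 in *Krt18* and 6 in *Krt19*. Because *Krt8* and *Krt18* had similar profiles over the samples, the sequence before both the RefSeq and the GENCODE start of each is shown (RefSeq, GRCm38.p6), for *Krt8* from chr15:102004483-102004592 on the minus strand and for *Krt18* from chr15:102027966-102028179 on the plus strand. Capitals in the *Krt18* sequence mark CAGGTG, an E-box, on the opposite strand.
*Krt8*: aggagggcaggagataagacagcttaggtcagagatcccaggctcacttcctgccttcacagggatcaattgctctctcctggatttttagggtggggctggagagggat
*Krt18*: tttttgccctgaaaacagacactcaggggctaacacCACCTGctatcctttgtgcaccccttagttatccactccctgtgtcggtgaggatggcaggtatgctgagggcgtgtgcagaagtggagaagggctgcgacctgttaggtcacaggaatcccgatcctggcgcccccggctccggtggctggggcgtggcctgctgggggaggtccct
Promoters of 3 of the 4 keratins were matched in the RefSeq table, and *Krt19* was not among them. In the 250 bases before the RefSeq start, on both strands, CAGGTG occurred 1 time each in *Krt7*, *Krt8* and *Krt18*, and in 17.2% of the 32851 promoters. In *Krt8* it lay 111 bases before the RefSeq start, within the exon that GENCODE annotates and outside the stretch printed. The GC box GGGCGG occurred 4 times in *Krt7* and 0 times in *Krt8* and *Krt18* (32.7% of promoters). TATAAA (12.4% of promoters) and the AP-1 element TGANTCA (6.75%) were not in these windows of the 3 genes.

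*Krt8* was the most abundant of the 4 keratins in every sample, with 68.5 FPKM in WT 1 and 131.6 in WT 2 against 46.5 in promoter KO 1 and 65.7 in promoter KO 2. *Krt18*, its type I partner, had 56.9 and 88.9 FPKM in WT 1 and WT 2 against 40.0 and 54.8 in promoter KO 1 and promoter KO 2. For both genes WT 2 stood far above the other samples, promoter KO 1 was the lowest, and the groups did not overlap, although promoter KO 2 lay only 2.79 FPKM below WT 1 for *Krt8* and 2.14 FPKM below it for *Krt18*. *Krt19* was at 17.2 FPKM in WT 1 and 45.9 in WT 2 against 19.3 in promoter KO 1 and 20.9 in promoter KO 2. Here the groups overlapped, because WT 1 was the lowest of the 4 samples while WT 2 was the highest. *Krt7* was scarce, with 3.65 and 4.53 FPKM in WT against 2.12 and 2.22 in promoter KO, and its 2 groups were separate, with the promoter KO values closer together than the WT values. At the estimated depths these levels rest on about 174 to 386 fragments of *Krt7*, 575 to 1383 of *Krt19*, 1069 to 2407 of *Krt18* and 1765 to 5068 of *Krt8*, so counting error is largest for *Krt7*.

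**Figure D1:**
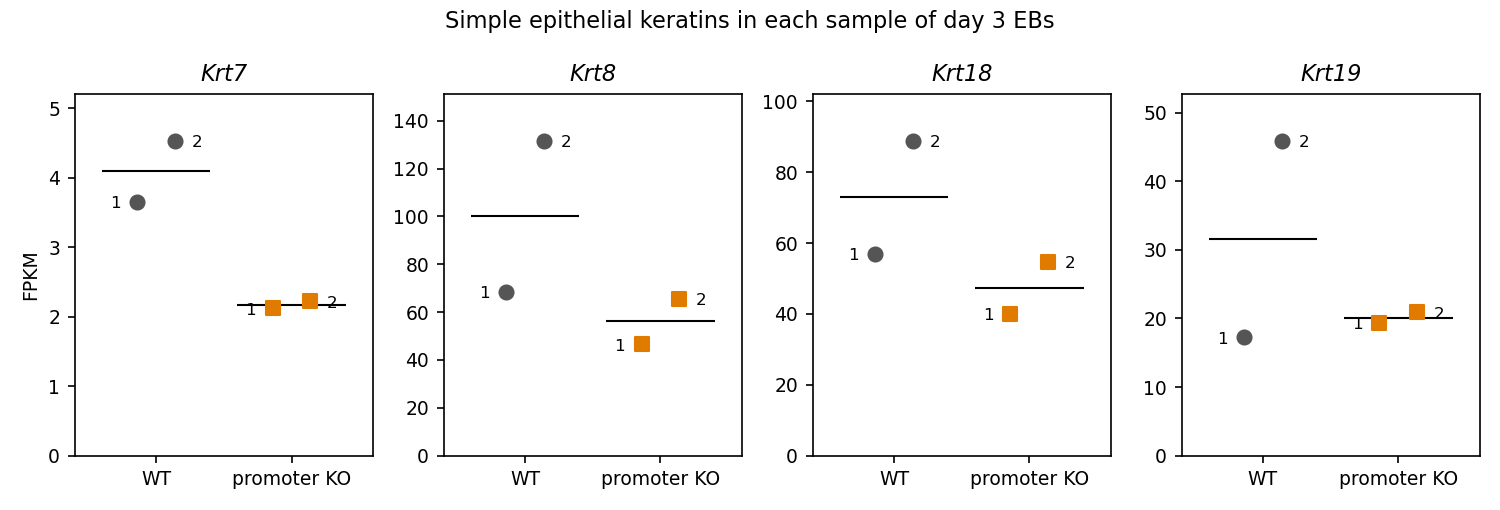
FPKM (linear axes from 0, scaled for each gene) of the 4 keratins in WT (circles) and promoter KO (squares) day 3 EBs, with replicate numbers beside the points and a line at each mean (n = 2 each). WT 2 is the highest point in every panel, with 131.6 FPKM of *Krt8* against 68.5 in WT 1, and the groups overlap for *Krt19* alone.

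The mean level of *Krt8* was 100.05 ± 44.7 FPKM in WT EBs against 56.1 ± 13.6 in promoter KO EBs (mean ± SD, n = 2 per genotype), with a difference of −0.77 in mean log2(FPKM + 1) against a pooled SD of 0.53 between replicates. *Krt18* was at 72.9 ± 22.6 and 47.4 ± 10.4 FPKM, a log2 difference of −0.59 with a pooled SD of 0.39. These differences exceeded 1 SD, but each rested in large part on WT 2. Without WT 2 the log2 difference was −0.30 for *Krt8* and −0.28 for *Krt18*, and without WT 1 it was −1.24 and −0.91. *Krt7* was at 4.09 ± 0.621 FPKM in WT against 2.17 ± 0.0711 in promoter KO, with a log2 difference of −0.68 and a pooled SD of 0.13. Its difference was thus the largest of the 4 relative to the replicate spread, and it was −0.55 without WT 2, although the pseudocount of 1 understates differences at so low a level. *Krt19* was at 31.6 ± 20.3 and 20.1 ± 1.08 FPKM. Its log2 difference of −0.47 was smaller than its pooled SD of 0.68 and turned to 0.21 without WT 2.

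In 3 of the 4 keratins the promoter KO values were all below the WT values, a separation that 32.4% of the 11941 tested genes showed in this direction and 32.9% in the other. All 4 passed the filter for low values of 1 FPKM in at least 2 samples, and reached it in every sample. Since the rule used this contrast, nothing is read from these counts. With 2 samples against 2, the smallest p that an exact two-sided permutation test can reach for 1 gene is 0.333. In bulk samples, fewer cells that make keratins and less keratin RNA per cell cannot be told apart.

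The spread between replicates was itself uneven. Between WT 1 and WT 2, log2(FPKM + 1) differed by 1.36 for *Krt19*, 0.93 for *Krt8*, 0.63 for *Krt18* and 0.25 for *Krt7*, where the median over all tested genes was 0.13. For the first 3 of these genes the difference was larger than in 99.5%, 98.8% and 96.9% of the tested genes, and for *Krt7* than in 76.7%. Between the promoter KO samples, *Krt8* differed by 0.49 and *Krt18* by 0.44, with sample 2 again the higher, which was more than in 93.2% and 91.3% of tested genes. *Krt19* differed by 0.10 and *Krt7* by 0.05, below the median of 0.14. *Krt8* and *Krt18* were thus among the more variable genes within both genotypes, and *Krt19* within WT. WT 2 was the highest sample for all 4 keratins, as it was for 31% of the tested genes, and 3 keratins had the order WT 2, WT 1, promoter KO 2, promoter KO 1, which 16.4% of tested genes shared.

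**Figure D2:**
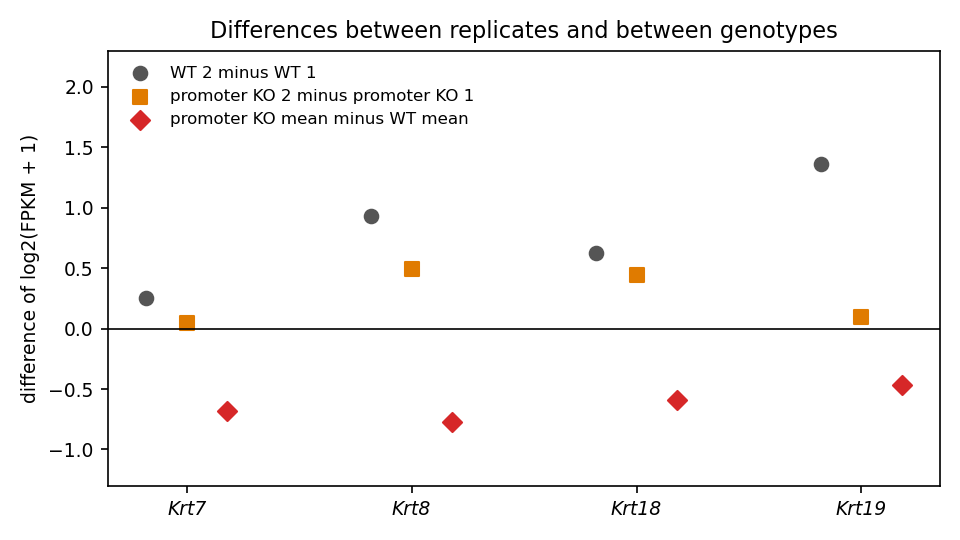
Differences of log2(FPKM + 1) between the replicates of each genotype (circles, WT 2 minus WT 1, and squares, promoter KO 2 minus promoter KO 1) and between the genotype means (diamonds, promoter KO minus WT) for each keratin. For *Krt8* the WT replicates differ by 0.93 and the genotypes by −0.77, whereas for *Krt7* these values are 0.25 and −0.68.

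The make-up of the keratin pool was steadier than its size. Summed over the 4 genes, the level was 146 FPKM in WT 1 and 271 in WT 2 against 108 in promoter KO 1 and 144 in promoter KO 2, so that WT 1 and promoter KO 2 were nearly equal. The ratio of *Krt8* to *Krt18* was 1.20 in WT 1 and 1.48 in WT 2 against 1.16 in promoter KO 1 and 1.20 in promoter KO 2. Type II transcripts (*Krt7* and *Krt8*) and type I transcripts (*Krt18* and *Krt19*) were close to balance in WT, with ratios of 0.973 and 1.01, and type I was in excess in promoter KO, with ratios of 0.819 and 0.898. The ratio of *Krt19* to *Krt18* was 0.303 in WT 1 and 0.516 in WT 2, and the promoter KO samples lay between them at 0.484 and 0.381. The difference between WT 1 and WT 2 was thus not a single scaling of all 4 genes.

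Among all genes of a sample, ordered by FPKM, *Krt8* ranked 1404 in WT 1 and 715 in WT 2 against 2159 and 1506 in the promoter KO samples. The other 48 keratins added little. Their sum was 5.96 and 6.59 FPKM in WT against 8.25 and 5.52 in promoter KO, which left 92.9% to 97.6% of the keratin transcripts to the 4 simple epithelial genes. Of these 48 genes, 17 were listed at 0 in every sample, 45 stayed under 1 FPKM in all samples, and 2 could be tested. *Krt10*, a keratin of differentiated epidermis, had 2.34 and 2.48 FPKM in WT against 1.88 and 1.98 in promoter KO (log2 difference −0.22, limma adjusted p = 0.338). *Krt17*, found in basal and stressed epithelia, had 0.905, 1.26, 1.14 and 1.00 FPKM in the 4 samples in the same order (adjusted p = 0.991). *Krt42*, singled out after its values were seen, was at 0.273 and 0.307 FPKM in WT against 2.32 and 0.713 in promoter KO.

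**Figure D3:**
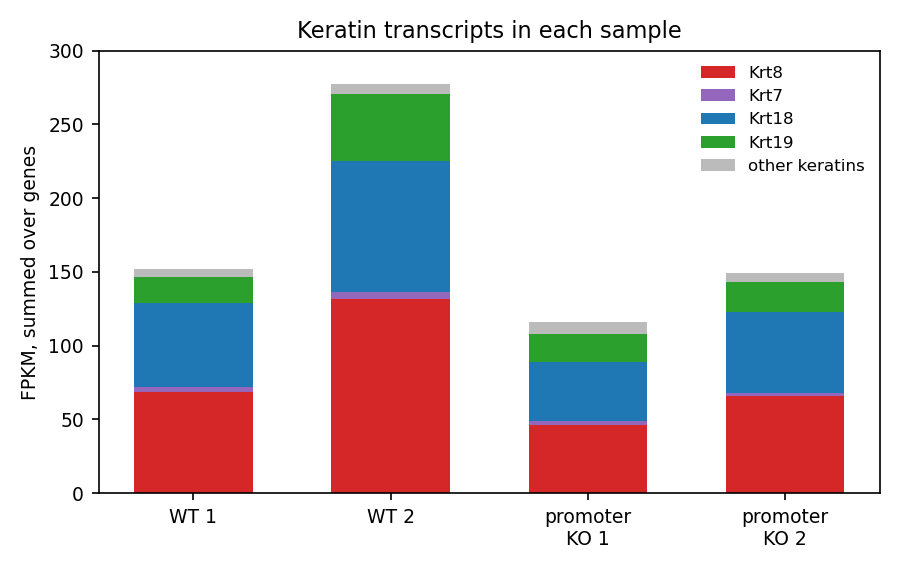
FPKM of the 4 simple epithelial keratins and the summed FPKM of the other 48 keratins, stacked in 1 bar for each sample. The 4 genes sum to 271 FPKM in WT 2 and to 108 to 146 FPKM in the other samples, and the other keratins to at most 8.25 FPKM.

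The genes whose profile was most like that of *Krt8* and *Krt18* were taken from the 8559 other genes with a mean of at least 5 FPKM, by the Euclidean distance between log2(FPKM + 1) values centred on each gene's mean over the 4 samples. Among the nearest were *Dnaaf3* (distance 0.108), *Cldn3* (0.187), *Mapkapk2* (0.190) and *Glipr2* (0.205). *Cldn3*, which encodes a tight junction claudin, had 24.96 and 45.2 FPKM in WT against 16.1 and 20.8 in promoter KO. *Mapkapk2*, which encodes a kinase of stress signalling, had 21.5, 32.4, 15.05 and 20.2 FPKM in the 4 samples in that order. The distances above were taken to the mean profile of *Krt8* and *Krt18*. *Krt8* and *Krt18* each lay 0.139 from this mean, of which they are part, with 1 other gene as near or nearer, and were 0.278 from each other. *Krt7* lay 0.481 and *Krt19* 0.526 from the mean profile, with 284 and 416 genes as near or nearer.

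The genotype was tested with limma over all genes, and 226 genes (1.89% of those tested) fell and 201 (1.68%) rose in promoter KO at an adjusted p under 0.05. These calls depended on single libraries. Without WT 2 limma called 0 genes in either direction, with 976 lower and 899 higher at an unadjusted p under 0.05, and without promoter KO 1 it called 0 as well, with 1043 lower and 966 higher. The median log2 difference of all tested genes was 0.004. Each gene list below was counted in this fit, and for lists with 0 calls the unadjusted counts are given.

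Of 21 desmosome, hemidesmosome and cytolinker genes, whose proteins anchor keratin filaments, 13 were tested and 0 were called by limma, while 3 were lower and 3 higher at an unadjusted p under 0.05, a threshold that 15.6% of all tested genes passed as lower and 15.0% as higher. The promoter KO values of 3 of the 13 were all below the WT values, and those of 6 were all above them, beside 32.4% and 32.9% of all tested genes. The median log2 difference was −0.01, and it was 0.15 without WT 2 and 0.14 without promoter KO 1. *Pkp2*, a plakophilin of desmosomes, had 30.2 and 28.1 FPKM in WT against 22.5 and 24.8 in promoter KO (adjusted p = 0.125), and *Pkp4* was level at 27.3, 28.8, 26.4 and 29.2 FPKM. *Dsp*, singled out after its values were seen, encodes desmoplakin, which ties keratin filaments to desmosomes. Among the 13 tested genes *Dsp* was the only 1 with the sample order given next, beside 16.4% of all tested genes. It had the sample order of *Krt7*, *Krt8* and *Krt18*, with 6.89 FPKM in WT 1 and 14.5 in WT 2 against 3.92 in promoter KO 1 and 5.23 in promoter KO 2 (95% confidence interval of the log2 difference −1.79 to −0.21, adjusted p = 0.109), and the difference was −0.51 without WT 2 and −1.49 without WT 1.

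Of the 21 genes of epithelial junctions and surfaces all were tested and 0 were called by limma, with 3 lower and 2 higher at an unadjusted p under 0.05 (15.6% and 15.0% of all tested genes) and a median log2 difference of −0.04, which was −0.10 without WT 2 or without promoter KO 2 and 0.05 without promoter KO 1. Their summed level was 1023 and 1069 FPKM in WT against 959.9 and 1104 in promoter KO. *Spint2*, the most abundant, had 192, 205, 197 and 205 FPKM, and *Cldn6* had 148 and 157 FPKM in WT against 144 and 191 in promoter KO. These abundant genes carried much of the sum, and single members differed from it. *Cldn4*, a claudin gene named after its values were seen, was high in WT 2, with 27.4 and 60.5 FPKM in WT against 25.8 and 24.6 in promoter KO (log2 difference −0.68, limma adjusted p = 0.225, and −0.12 without WT 2), as was *Cldn3* above. WT 2 was the highest sample for 6 of the 21 genes, beside 31% of all tested genes. The promoter KO values of 6 were all below the WT values and those of 6 all above them, beside 32.4% and 32.9% of all tested genes. Among the 15 other intermediate filament genes, 12 were tested, 0 fell and 2 rose, with a median of 0.50 that was 0.06 with no filter, 0.26 at a mean of at least 5 FPKM, 0.24 without WT 1 and 0.33 without promoter KO 1. The count that rose was 0 without WT 2 or without promoter KO 1 (limma, with 7 and 5 higher and 0 and 1 lower at an unadjusted p under 0.05) and 1 without WT 1 or without promoter KO 2. The neurofilament genes *Nefl* (36.5 and 25.9 FPKM in WT, 67.98 and 70.2 in promoter KO, log2 difference 1.14, limma adjusted p = 0.0377) and *Nefh* (1.87 and 1.52 FPKM in WT, 9.14 and 5.38 in promoter KO, log2 difference 1.58, adjusted p = 0.0393) were the 2 that rose. *Vim*, the intermediate filament gene of mesenchymal cells, was high in WT 2, as the keratins were, with 51.8 FPKM in WT 1 and 104.9 in WT 2 against 52.8 in promoter KO 1 and 44.4 in promoter KO 2 (log2 difference −0.60, adjusted p = 0.242, and −0.09 without WT 2). *Lmnb1*, a nuclear lamin gene, was flat at 225, 222, 230 and 219 FPKM.

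**Figure D4:**
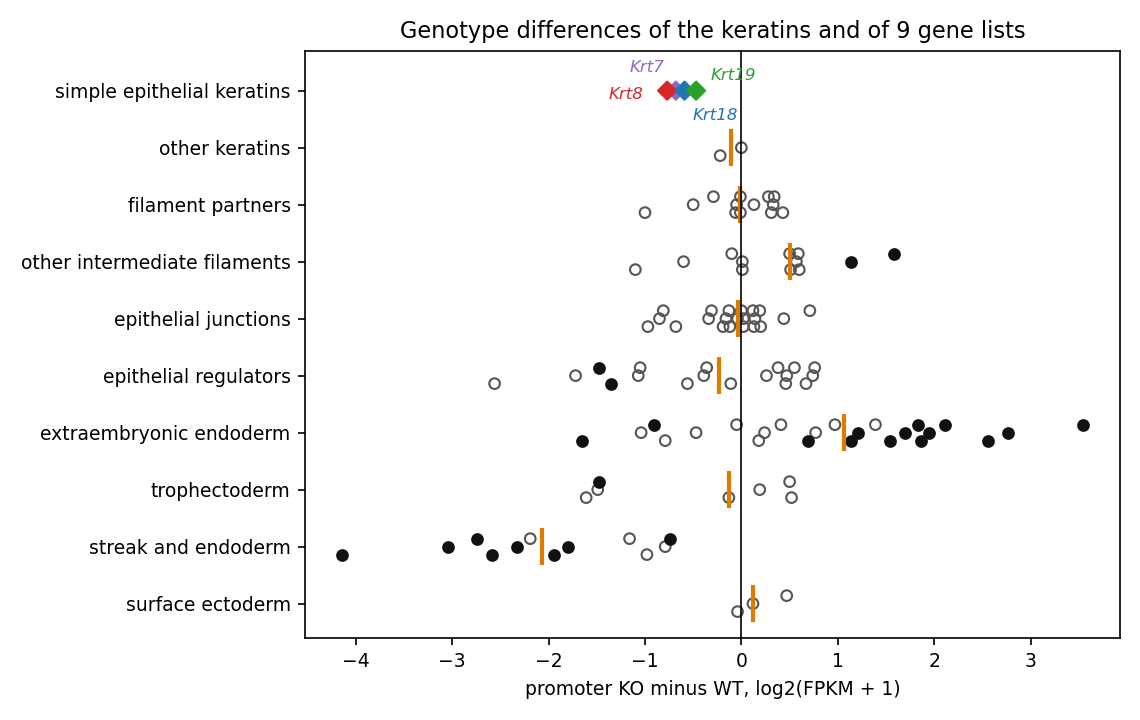
Difference between promoter KO and WT means of log2(FPKM + 1) for the 4 keratins (diamonds, not tested) and for each tested gene of 9 lists (circles, filled at a limma adjusted p under 0.05, vertical bars at the list medians). The keratins lie between −0.77 and −0.47, the extraembryonic endoderm list has a median of 1.06, and the streak and endoderm list one of −2.07.

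*Krt8* and *Krt18* are themselves known products of extraembryonic endoderm. Of 26 markers of that tissue 24 were tested, 12 rose and 2 fell, with a median log2 difference of 1.06, and of 1.78 with a pseudocount of 0.1. The choice of the keratins used the direction of these markers, and the list was drawn up with earlier results of these data known, so its direction is not independent evidence. *Lrp2* (3.78 and 3.29 FPKM in WT, 12.97 and 11.4 in promoter KO) and *Amn* (2.33 and 1.14 FPKM in WT, 14.4 and 15.1 in promoter KO), both of the endocytic machinery of visceral endoderm, rose with an adjusted p of 0.0208 each. The basement membrane gene *Lama1* rose from 1.51 and 2.18 FPKM to 14.5 and 22.7 FPKM (log2 difference 2.76), and *Col4a1* and *Col4a2* rose by 1.83 and 2.11 on the log2 scale (adjusted p = 0.0233 and 0.0208). *Sparc*, which encodes a matrix protein made by parietal endoderm, had 46.0 and 59.3 FPKM in WT against 111 and 134 in promoter KO (log2 difference 1.21, adjusted p = 0.0318). The 2 that fell were *Gata6*, named after its values were seen, with 12.8 and 21.7 FPKM in WT against 4.13 and 5.18 in promoter KO (adjusted p = 0.0389), and *Fst*, the most abundant of the list in WT and second to *Sparc* in promoter KO, with 138 and 116 FPKM in WT against 58.8 and 76.1 in promoter KO (adjusted p = 0.0422). Both genes also have other sites of expression in the early embryo, which was not looked at for the markers that rose. The promoter KO values of 5 of the 24 tested markers were all below the WT values, and those of 16 were all above them. Over all tested genes these shares were 32.4% and 32.9%. The summed level of the list was 324, 352, 441 and 548 FPKM, and without *Fst* it was 186, 235, 382 and 472 FPKM. No marker of the list was at 0 in all samples. The part of this tissue in the keratin levels was not tested. Without WT 2 or without promoter KO 1 the call count of this list was 0, while its median was 1.04 and 1.19, with 17 genes higher in each case and 2 and 3 lower at an unadjusted p under 0.05.

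Markers of trophectoderm, the other early site of this keratin pair, were scarce. Of 15 genes 7 were tested, 1 fell and 0 rose, with a median of −0.13 that ranged from −0.26 without promoter KO 1 to 0.00 without promoter KO 2 and was −0.02 with no filter and −1.48 at a mean of at least 5 FPKM, which 2 genes reached. *Tpbpa* and *Prl3d1* were listed at 0 in every sample. The gene that fell was *Tfap2c*, also expressed outside trophectoderm, with 9.60 and 16.2 FPKM in WT against 3.87 and 3.83 in promoter KO (log2 difference −1.48, limma adjusted p = 0.0422). Without WT 2, promoter KO 1 or promoter KO 2 limma called 0 genes of this list, with 1 lower in each case and 2, 1 and 1 higher at an unadjusted p under 0.05, and without WT 1 it called 2 lower. *Cdx2*, which is also made in the posterior streak and had the highest mean of the list through WT 2, had 5.77 FPKM in WT 1 and 25.4 in WT 2 against 2.49 in promoter KO 1 and 5.51 in promoter KO 2 (log2 difference −1.49, adjusted p = 0.177, and −0.51 without WT 2). The summed level of the list was 26.8 FPKM in WT 1 and 66.6 in WT 2 against 22.5 and 24.0 in the promoter KO samples. This was the order of samples of *Krt8* and *Krt18*, but it rested on *Cdx2*, the only 1 of the 7 tested genes with that order. Without *Cdx2* the sum was still highest in WT 2, but promoter KO 1 (19.99 FPKM) lay above promoter KO 2 (18.5 FPKM). Of 6 surface ectoderm markers 3 were tested and 0 were called by limma, also at an unadjusted p under 0.05, with a median of 0.12 that was 0.31 without WT 2 and 0.36 without promoter KO 2. The list summed to 10.98, 13.4, 15.2 and 12.6 FPKM and was led by *Cdh3*. Next was *Grhl3*, a regulator of epidermal barrier genes, with 1.00, 2.41, 3.53 and 1.90 FPKM (adjusted p = 0.354).

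EBs of this protocol are labelled as mesendoderm cells, and the markers of primitive streak and endoderm were abundant in WT. All 12 were tested, 8 fell and 0 rose, with a median of −2.07 and a summed level of 839.8 and 1065 FPKM in WT against 167 and 339 in promoter KO. Several of these genes were marked by the study on these same data, so the count is not independent evidence. *T*, the most abundant in all samples but promoter KO 1, was at 306 FPKM in WT 1 and 448 in WT 2 against 50.5 in promoter KO 1 and 127.0 in promoter KO 2 (adjusted p = 0.0509), and *Eomes*, a second T-box gene, at 166 and 168 FPKM in WT against 56.3 and 97.1 in promoter KO (adjusted p = 0.0547). *Lhx1* fell by 3.04 on the log2 scale (adjusted p = 0.0208). *Cer1*, a Nodal inhibitor gene of anterior endoderm (log2 difference −1.80, adjusted p = 0.0233), *Gsc* (log2 difference −2.33, adjusted p = 0.0372) and *Mixl1* (log2 difference −2.74, adjusted p = 0.0389) fell as well. *Mesp1*, a gene of early mesoderm, fell from 27.0 FPKM in WT 1 and 101 in WT 2 to 0.759 and 4.24 FPKM (adjusted p = 0.0467). Without WT 2 or without promoter KO 1 limma called 0 of the 12, with 11 lower and 0 higher at an unadjusted p under 0.05 and a median of −1.98 and −1.75, and without WT 1 it called 4 lower. No marker was at 0 in all samples. The sum had the order of *Krt8* and *Krt18* over the samples, with WT 2 highest and promoter KO 1 lowest. The part of these marker genes in the keratin levels was not tested.

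Genes of transcription factors known to act on simple epithelial genes included the AP-1 genes, whose products bind elements in keratin genes. Of 23 regulators 18 were tested, 2 fell and 0 rose, with a median of −0.23 that was −0.11 with no filter, −0.10 without WT 2, −0.16 without promoter KO 1 and −1.05 at a mean of at least 5 FPKM. Without WT 2 or without promoter KO 1 limma called 0 of them in either direction, with 5 lower and 4 higher, and 3 lower and 1 higher, at an unadjusted p under 0.05, and without promoter KO 2 it called 1 lower and 1 higher. The 2 that fell were *Tfap2c* and *Fosl2*, the latter with 4.52 and 5.41 FPKM in WT against 0.892 and 1.88 in promoter KO (log2 difference −1.35, adjusted p = 0.0460). All 5 tested AP-1 genes were highest in WT 2, *Fosl2* by little, while the untested *Fosl1*, named after its values were seen, was lowest there at 0.262 FPKM. *Jun* had 11.96 FPKM in WT 1 and 93.6 in WT 2 against 7.86 in promoter KO 1 and 11.8 in promoter KO 2 (log2 difference −1.72, 95% confidence interval −3.80 to 0.36, adjusted p = 0.226), and the difference was −0.28 without WT 2 and −3.15 without WT 1. *Jund*, the most abundant regulator, had 105.9, 189, 54.7 and 81.4 FPKM in that order (log2 difference −1.07, adjusted p = 0.0842, and −0.66 without WT 2). *Fos* and *Fosb*, named after their values were seen, had 67.3 and 20.5 FPKM in WT 2 and at most 5.03 and 0.348 FPKM in the other samples. The summed level of the regulators was 261 FPKM in WT 1 and 542 in WT 2 against 212 in promoter KO 1 and 226 in promoter KO 2. Without *Jund* the sum was 155 and 352 FPKM in WT against 158 and 145 in promoter KO, with promoter KO 1 above WT 1. WT 2 thus stood apart for *Jun*, *Jund*, *Fos*, *Fosb*, *Vim*, *Cdx2* and *Dsp* as it did for *Krt8*, *Krt18* and *Krt19*, but not across all lists. It was the highest sample for 10 of the 18 tested regulators, 9 of 12 streak and endoderm markers and 4 of 7 trophectoderm markers. Among filament partners it was highest for 4 of 13, other intermediate filaments 3 of 12 and junction genes 6 of 21. For extraembryonic endoderm this was 6 of 24 and for surface ectoderm 0 of 3, beside 31% of all tested genes. *Jun* and *Vim*, like *Cdx2*, were named among the 2 most abundant of their lists, a place each held through WT 2. Their height in WT 2 is therefore partly set by how they were chosen. The part of this library's state in the keratin differences was not tested.

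**Figure D5:**
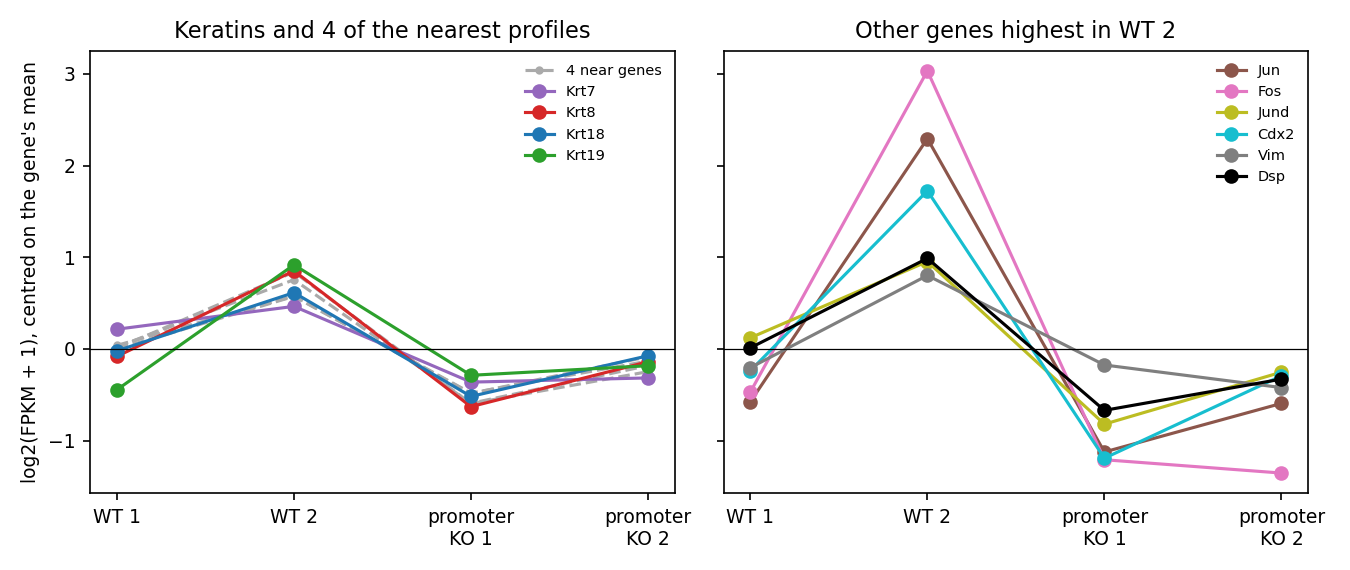
log2(FPKM + 1) in the 4 samples, centred on each gene's mean, for the 4 keratins and 4 of the genes nearest to *Krt8* and *Krt18* (left) and for 6 other genes that were highest in WT 2, chosen after their values were seen (right). *Krt19* is lowest in WT 1 and highest in WT 2, and *Fos* and *Jun*, with 67.3 and 93.6 FPKM in WT 2, have the largest excess there among the genes drawn.

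Position and shared sequence were checked for the *Krt8* and *Krt18* pair. Within 100 kb of it GENCODE annotates 8 other genes, of which 6 had values, 3 were tested and 0 were called by limma, also at an unadjusted p under 0.05. The 3 keratin genes on the *Krt8* side, *Krt4*, *Krt79* and *Krt78*, were under 1 FPKM in all samples. On the *Krt18* side, taken by position, *Eif4b* had 300.2 and 296 FPKM in WT against 258 and 275 in promoter KO (log2 difference −0.16, adjusted p = 0.194), *Tns2* had 5.31, 4.54, 3.74 and 4.18 FPKM (adjusted p = 0.282) and *Spryd3* had 12.3, 11.7, 11.2 and 10.9 FPKM (adjusted p = 0.526). None of these 3 had its highest value in WT 2. *Krt8* has 1 annotated near-identical copy, the pseudogene *Krt8-ps* (98.6% identity over 941 bases), which was not analysed here, and its level is uncertain to that extent. No other annotated transcript matched *Krt7*, *Krt18* or *Krt19* at 95% identity over at least 200 bases. Below that identity, *Krt18* had long matches in *Gm5200* (90.45% over 1267 bases), *Gm17847* (86.5% over 1065 bases) and *Gm7943* (83.5% over 972 bases). These had no values in the data, and their part in the *Krt18* level was not tested. The non-coding gene *Gm36026* overlaps the first 271 bases of *Krt8* on the opposite strand, and since the sources used here do not say whether counting was by strand, reads of the pair cannot be told apart there.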

How the data were processed

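RNA was sequenced from day 3 EBs, in 2 samples of each genotype. The deposited values were taken as FPKM, estimated by the authors with Cufflinks. Their headers name no unit and the methods say RPKM. For mapping to mm10 the submitters' processing notes name HISAT2 2.1.0 and Cuffnorm, and the methods name TopHat and Cuffdiff, so the mapper is uncertain. Genes that reached 1 FPKM in 2 or more samples were tested on log2(FPKM + 1) by limma 3.58.1 (R 4.3.3, lmFit and eBayes with trend) without further normalization and with Benjamini-Hochberg adjustment. A difference on this scale understates that of low genes. The study's methods call the replicates biological, the labels give no culture details, and p-values measure the spread between these samples.

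The members and lists were chosen with earlier results of these data known. Named genes were the 4 keratins and, of each list, up to 5 called genes with the smallest adjusted p, the 2 most abundant, markers at 0, and the 5 nearest profiles, of which 1 is not reported here. Other names are said to be chosen later or by position.

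Depth was estimated from the value of 1 fragment in genes with 1 annotated transcript, assuming fragments of 200 bases. Copies were sought with BLAST 2.17.0. Tables and figures were made with Python 3.11.15, pandas 2.3.3, numpy 2.4.6 and matplotlib 3.10.9. The limma and depth procedures were tested on simulated data. Alternatives were a pseudocount of 0.1, other filters, no trend, median centring, quantile normalization, the replicate number as a block, the ratio of mean FPKM and each sample left out.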

Additional observations from a re-analysis of the deposited data

How the results depend on the processing

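The log2 differences of *Krt8* and *Krt18* kept their sign under every alternative run. Over the samples left out in turn they ranged from −1.24 to −0.30 for *Krt8*, from −0.91 to −0.28 for *Krt18* and from −0.80 to −0.55 for *Krt7*, and from −1.15 to 0.21 for *Krt19*, which turned without WT 2. With a pseudocount of 0.1 *Krt7* moved to −0.88, and its log2 ratio of mean FPKM was −0.92. The arm left with 1 sample was assumed to vary like the other.

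Main counts were 226 lower and 201 higher. With no filter (limma) they were 0 and 0, with 1982 lower and 2077 higher at an unadjusted p under 0.05. They were 108 and 95 at a mean of at least 5 FPKM and 27 and 55 without the trend. Median centring gave 126 lower, and the higher share of calls, 47.1% in the main counts, was then 55.5%. It was 67.1% without the trend and 34.9% without WT 1 (114 lower, 61 higher). Leaving out samples gave 0 to 248 lower and 0 to 238 higher. The causes were not tested.

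The genotypes share replicate numbers, but the labels do not say that these pair the samples, and same-numbered samples had a correlation of deviations of 0.0348. With the replicate number as a block, limma called 667 lower and 535 higher, in the lists 1 filament partner, 1 other intermediate filament, 3 junction genes, 4 regulators, 2 trophectoderm, 3 extraembryonic endoderm and 11 streak genes lower, and 1 junction gene, 1 regulator, 3 other intermediate filaments and 14 extraembryonic endoderm genes higher.

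Lower regulators numbered 1 with a pseudocount of 0.1 or at a mean of at least 5 FPKM, and 0 with no filter or no trend (0 to 3 with samples left out, 0 to 1 higher). Extraembryonic endoderm had 0 lower with no filter or no trend, and 0 and 7 higher (left out, 0 to 1 lower and 0 to 9 higher). Other intermediate filaments had 0 higher with no filter or no trend and 1 at a mean of at least 5 FPKM (left out, 0 to 1 lower and 0 to 1 higher). Trophectoderm had 0 lower with no filter or no trend (left out, 0 to 2). Streak and endoderm had 5 lower with a pseudocount of 0.1 or quantile normalization, 4 at a mean of at least 5 FPKM or with centring, 2 without the trend and 0 with no filter (left out, 0 to 8). Junctions had 0 to 2 lower with samples left out.

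Near-level genes changed sign: *Pkp4* to 0.02 (centring), 0.03 (without WT 2) and 0.06 (without promoter KO 1), *Spint2* to −0.01 (quantile normalization) and from −0.03 (without WT 1) to 0.07 with samples left out, *Cldn6* from −0.08 (without promoter KO 2) to 0.33 and *Lmnb1* from −0.02 (without promoter KO 1) to 0.04. *Krt17*, level in the main fit, ranged from −0.13 without WT 1 to 0.12 without WT 2. Of the other named genes, 17 lost their call with no filter, without WT 2 or without promoter KO 1, where their log2 differences were 100%, 76.3% to 115% and 75.0% to 113% of the main ones. Calls were lost by 10 without the trend, 6 without WT 1, 3 without promoter KO 2, 2 with a pseudocount of 0.1, 1 with centring and 1 at a mean of at least 5 FPKM. Calls were gained by 9 with the block, 4 without WT 1 and 2 without promoter KO 2. The named genes called in the main fit numbered 17, and 15 of them were tested at a mean of at least 5 FPKM. Depth limits *Krt7* most, with about 174 to 386 fragments a sample.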
